A study of Mus musculus with 35 samples.

Results

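The 9 genes described here encode ligands and receptors of the tumor necrosis factor (TNF) superfamily, measured by RNA sequencing in myeloid-derived suppressor cells (MDSC) and in whole pancreatic tumors of mice. They were chosen by name as 5 ligands (Tnf, Tnfsf10, Tnfsf13b, Tnfsf9 and Tnfsf14) and 4 receptors (Tnfrsf1a, Tnfrsf1b, Tnfrsf10b and Fas), and each matched a single row among the 53379 gene rows of the count table. All mice were female C57BL/6, 6 to 12 weeks old, and carried an orthotopic T110299 tumor, a single mouse pancreatic cancer cell line. Treated mice received 50 µg of poly(I:C), a synthetic double-stranded RNA, complexed with polyethylenimine (poly(I:C)c) intravenously on days 18 and 20. The other arm is labelled untreated, and the study's general methods name glucose solution as the control injection. Polymorphonuclear MDSC (PMN-MDSC, CD11b+ Ly6C lo Ly6G+) and monocytic MDSC (M-MDSC, CD11b+ Ly6C hi Ly6G-) were sorted from spleen and tumor of 8 mice, 4 in each arm, and bulk tumor was lysed directly from untreated mice only. Each group holds 4 libraries, except poly(I:C)c PMN-MDSC of spleen with 3 and poly(I:C)c M-MDSC of tumor with 3 after a library of 10 counts was left out.

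Ligands of the TNF superfamily are mostly made as membrane proteins that act as trimers and can be shed, and their receptors fall into those with a cytoplasmic death domain and those without. Death domain receptors such as Tnfrsf1a (TNFR1), Tnfrsf10b (the mouse receptor of TRAIL that signals death) and Fas can recruit caspase-8 and trigger apoptosis, and Tnfrsf1a also activates NF-kB. Tnfrsf1b (TNFR2) lacks the death domain and signals through TRAF proteins. Myeloid cells are a main source of Tnf, and Tnfsf10 (TRAIL) is a known target of type I interferon, the cytokine family that double-stranded RNA elicits.

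The 30 sorted libraries held 793070 to 4357105 counts each (median 2459368), and the 4 bulk tumor libraries held 3771590 to 8886115. Levels are given as CPM, counts relative to library size, scaled over all 34 libraries by the trimmed mean of M-values (TMM). A count of 0 leaves room for up to 3 counts, which is 0.8 CPM in the shallowest bulk tumor library and 3.78 CPM in the shallowest sorted library. Such limits cover counting error only, since PCR reads carried no molecular identifiers. The gates could be checked against their markers. Neutrophil markers summed to 13156 to 25539 CPM in untreated PMN-MDSC of spleen but to 928 to 3089 CPM in untreated PMN-MDSC of tumor, where Ly6g, the gate's own gene, averaged 2.92 CPM against 63.3 CPM in spleen. The tumor PMN-MDSC libraries also held monocyte markers at 3967 to 7850 CPM and macrophage markers at 2987 to 3804 CPM, so they go against a purely granulocytic profile, and they are named here by their gate. Tumor epithelial keratin and cadherin genes summed to 126 to 711 CPM in these libraries, to 101 to 317 CPM in untreated tumor M-MDSC, to 4550 to 6235 CPM in bulk tumor and to at most 15.9 CPM in spleen. Library 4 of the poly(I:C)c spleen M-MDSC stood apart with T cell, NK cell and B cell markers at 54.8, 145 and 120 CPM. Libraries are numbered only as names. Because these are bulk samples, fewer cells of a type and less RNA per cell cannot be told apart.

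**Figure D1:**
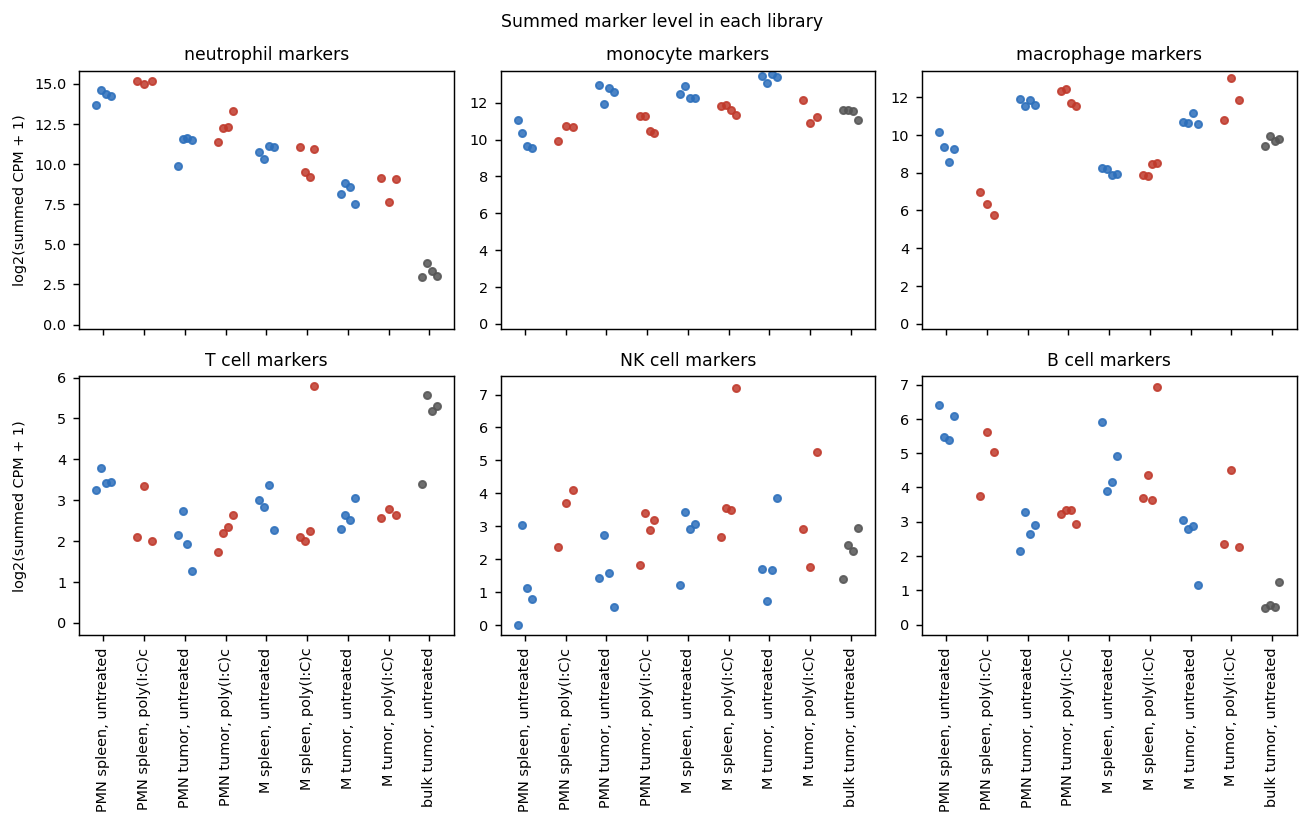
Summed CPM of the marker genes of 6 cell types (vertical axes, log scale) in each library, by group (horizontal axes, blue untreated, red poly(I:C)c, grey bulk tumor). The untreated tumor PMN-MDSC lie at 928 to 3089 CPM for neutrophil markers, under the 13156 to 25539 CPM of their spleen counterparts.

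Tnf, a proinflammatory cytokine, was abundant in MDSC of tumors and low in MDSC of spleens. In untreated PMN-MDSC it read 298, 347, 492 and 261 CPM in the 4 tumor libraries and 22.3, 26.8, 31.8 and 31.6 CPM in the 4 spleen libraries. In untreated M-MDSC it read 222, 199, 200 and 119 CPM in tumor and 17.7, 9.35, 18.4 and 11.04 CPM in spleen. Every tumor library was thus above every spleen library of the same cell type. The ratio was similar in both cell types, at 13.3-fold in PMN-MDSC (log2 fold change 3.73 ± 0.23 SE, edgeR adjusted p = 1.8e-06) and 13.6-fold in M-MDSC (3.77 ± 0.25, adjusted p = 6.7e-07). The gene spans chr17:35199381-35202007 on the minus strand of GRCm38, and per transcript length its highest group mean, in untreated tumor PMN-MDSC, was 213 FPKM. Bulk tumor, in contrast, gave 4 to 9 Tnf counts per library, or 0.78 ± 0.22 CPM (SD, n = 4). For the sorted cells, tumors were minced and dissociated with a kit, whereas spleens were strained and their red cells lysed. Compartment and preparation thus cannot be told apart, here or in the tumor-to-spleen comparisons below.

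**Figure D2:**
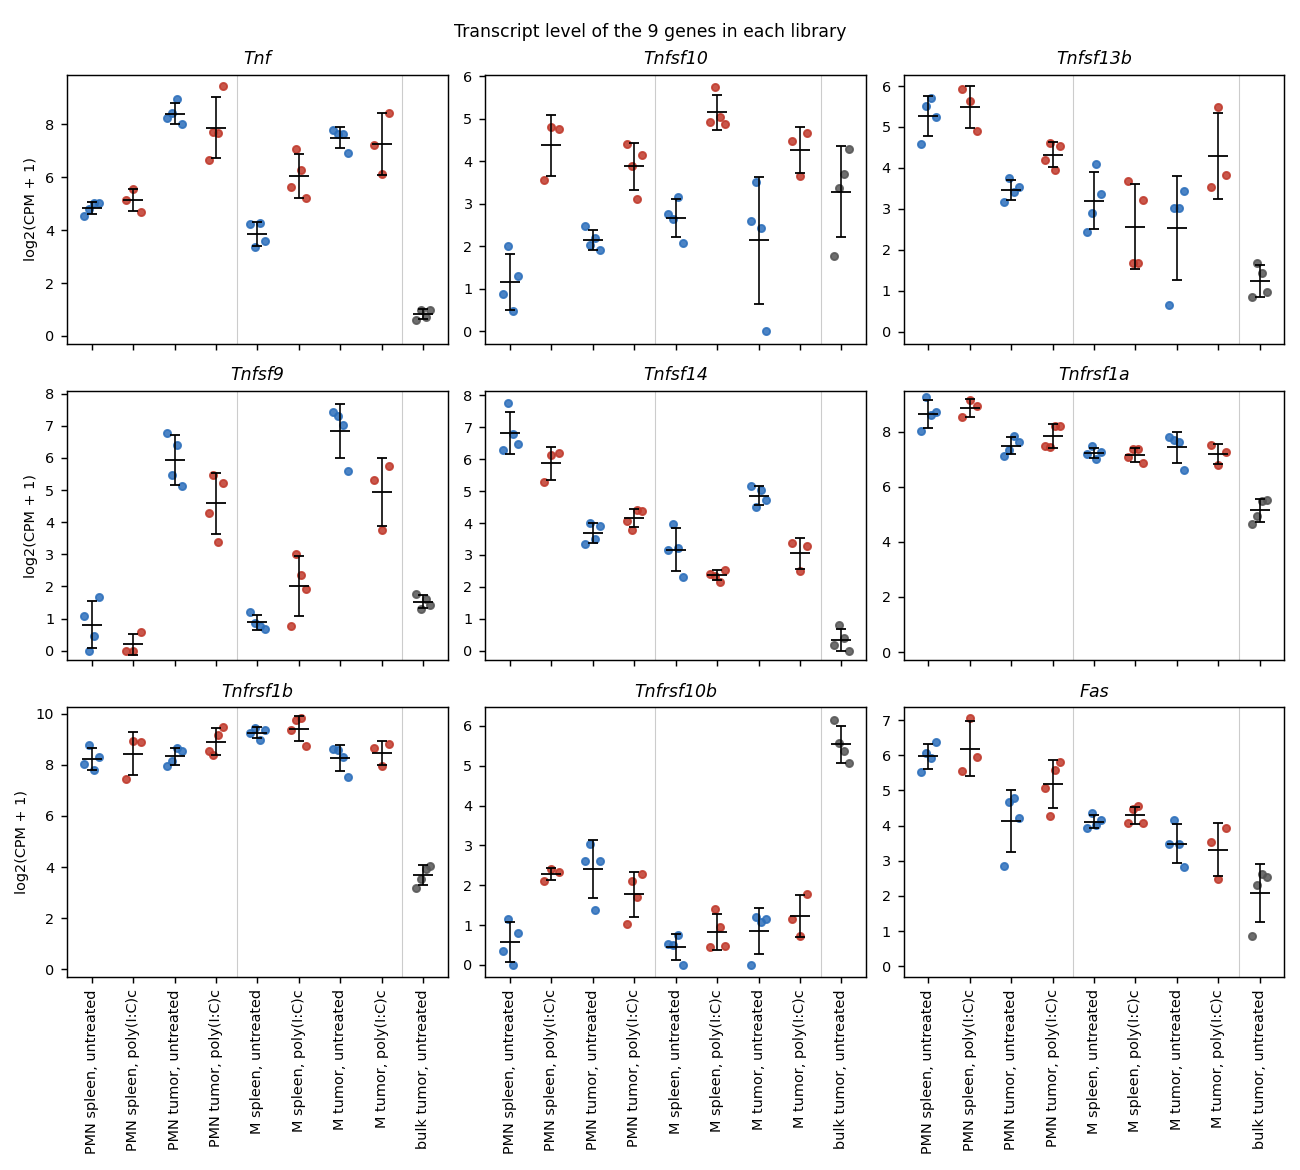
Level of each of the 9 genes in every library as log2(CPM + 1) (vertical axes), by group (horizontal axes). Points are libraries, bars are mean ± SD, blue is untreated, red is poly(I:C)c and grey is bulk tumor. Tnf and Tnfsf9 are high in all tumor MDSC groups, Tnfsf14 in spleen PMN-MDSC, Tnfsf10 in treated groups and Tnfrsf10b in bulk tumor.

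Tnfsf9 (4-1BB ligand, a costimulator of T cells) was at a few counts per library in spleen and well above that in tumor. Spleen libraries of untreated mice held 0 to 6 counts in PMN-MDSC and 2 to 3 counts in M-MDSC. The tumor PMN-MDSC libraries read 109, 43.0, 83.5 and 33.7 CPM and the tumor M-MDSC libraries 173, 159, 129 and 47.7 CPM. The gene passed the filter on low counts only through the tumor groups, so its test (adjusted p = 2.2e-05 in PMN-MDSC and 5.1e-07 in M-MDSC) carries little beyond these levels, and no fold is given against so few counts. Tnfsf9 lies at chr17:57105325-57107757 on the plus strand and shares 192 exonic bases with Gm11110 on the other strand, from which the strand-specific counting separated it.

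Tnfsf14 (LIGHT, a ligand of Tnfrsf14 and of the lymphotoxin beta receptor Ltbr) moved in opposite directions in the 2 cell types. Untreated PMN-MDSC held 77.1, 214, 109 and 88.4 CPM in spleen and 9.06, 15.04, 10.4 and 13.9 CPM in tumor. Untreated M-MDSC held 7.96, 14.6, 8.35 and 4.02 CPM in spleen and 34.9, 21.5, 31.8 and 25.7 CPM in tumor. No spleen library overlapped a tumor library within either cell type. Tumor PMN-MDSC were 9.46-fold lower than spleen PMN-MDSC (log2 fold change −3.24 ± 0.39, adjusted p = 6.7e-05), whereas tumor M-MDSC were 3.5-fold higher than spleen M-MDSC (1.81 ± 0.34, adjusted p = 0.00178). In M-MDSC the gene averaged 24.5 counts in spleen and 58 in tumor. It passed the filter there only through tumor, so that test adds little to the levels. The difference between these tumor-to-spleen changes, PMN-MDSC minus M-MDSC, was −4.93 ± 0.52 on the log2 scale (edgeR interaction, adjusted p = 8.1e-06), and it was called in each of the 16 fits that left out a library. Tnfsf14 lies at chr17:57189492-57194177 on the minus strand.

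Tnfsf13b (BAFF, a survival factor of B cells) was also mainly a transcript of spleen PMN-MDSC. It read 23.2, 44.4, 51.2 and 37.1 CPM there and 7.93, 12.4, 9.59 and 10.6 CPM in tumor PMN-MDSC of untreated mice. The ranges did not overlap, and the tumor cells were 3.54-fold lower (log2 fold change −1.82 ± 0.29, adjusted p = 4.0e-04). At a mean of 21.25 counts in tumor PMN-MDSC, Tnfsf13b passed the filter only through spleen, where it averaged 97.25, so the test adds little to the levels. In M-MDSC it averaged 9.04 ± 5.04 CPM (n = 4) in spleen and 6.16 ± 3.93 CPM (n = 4) in tumor, with a mean of 20.5 counts that left it untested. Tnfsf13b lies at chr8:10006467-10039072 on the plus strand.

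Per transcript length, the receptors of Tnf had the highest mean levels of all members in the 4 spleen groups, and Tnf itself had the highest in the 4 groups of tumor MDSC. Over these sorted groups the mean levels of both receptors spanned a smaller fold range than those of any ligand. Tnfrsf1a, which carries the death domain, read 261, 606, 385 and 419 CPM in untreated spleen PMN-MDSC and 138, 162, 227 and 196 CPM in untreated tumor PMN-MDSC. The tumor libraries were all lower, by 2.18-fold (log2 fold change −1.12 ± 0.27, adjusted p = 0.0045). In M-MDSC the same gene read 146, 176, 126 and 152 CPM in spleen and 224, 205, 198 and 95.4 CPM in tumor. These ranges overlapped and the change of 0.32 ± 0.21 did not pass (adjusted p = 0.282). It did pass without library 4 of tumor M-MDSC, the shallowest library of all and the lowest of its group (0.49, adjusted p = 0.00918). Tnfrsf1a lies at chr6:125349362-125362484 on the plus strand.

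Tnfrsf1b, which lacks the death domain and is found mainly on immune cells, showed another order. Spleen M-MDSC of untreated mice held it at 600, 702, 499 and 656 CPM and tumor M-MDSC at 389, 384, 319 and 185 CPM. The tumor values were all lower, by 1.87-fold (log2 fold change −0.90 ± 0.20, adjusted p = 0.00504). In untreated PMN-MDSC it read 262, 438, 219 and 314 CPM in spleen and 246, 284, 408 and 370 CPM in tumor, which overlapped (0.17 ± 0.25, adjusted p = 0.583). Both receptors thus differed between the cell types in how tumor compared with spleen. The interaction, PMN-MDSC minus M-MDSC, was −1.32 ± 0.35 for Tnfrsf1a (adjusted p = 0.00791) and 1.19 ± 0.33 for Tnfrsf1b (adjusted p = 0.0104), called in 16 of 16 fits without a library for each. Tnfrsf1b lies at chr4:145213463-145246870 on the minus strand. Per transcript length the highest group means were 182 FPKM for Tnfrsf1a, in poly(I:C)c spleen PMN-MDSC, and 186 FPKM for Tnfrsf1b, in poly(I:C)c spleen M-MDSC.

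Fas, the receptor of Fas ligand, was highest in PMN-MDSC of spleen. Untreated libraries read 44.9, 65.7, 59.4 and 82.9 CPM in spleen and 6.23, 24.4, 26.8 and 17.6 CPM in tumor. The tumor libraries were 3.11-fold lower without overlap (log2 fold change −1.64 ± 0.35, adjusted p = 0.00242). M-MDSC held 16.5 ± 2.32 CPM (n = 4) in spleen and 10.8 ± 4.48 CPM (n = 4) in tumor, and the difference of −0.54 ± 0.27 did not pass (adjusted p = 0.164), except without library 2 of tumor M-MDSC (−0.81, adjusted p = 0.0393). Fas ligand itself was at or under 0.52 CPM on average in every sorted group. Fas lies at chr19:34290666-34327772 on the plus strand.

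Tnfrsf10b and Tnfsf10, the death receptor and its ligand TRAIL, were both scarce in untreated MDSC. Tnfrsf10b gave 0 to 2 counts per library in both untreated spleen populations, 4 to 14 counts in tumor PMN-MDSC (5.10, 7.26, 1.60 and 5.08 CPM) and 0 to 4 counts in tumor M-MDSC. Tnfsf10 read 0.85, 3.04, 0.39 and 1.45 CPM in spleen PMN-MDSC, 4.53, 3.11, 3.60 and 2.77 CPM in tumor PMN-MDSC, 5.75, 5.28, 7.999 and 3.21 CPM in spleen M-MDSC and 5.07, 10.4, 4.39 and 0 CPM in tumor M-MDSC. Neither gene reached the filter in the comparison of tumor with spleen. The Tnfrsf10b libraries of tumor PMN-MDSC all lay above those of spleen PMN-MDSC, at these low counts. Tumor epithelial markers summed to 126 to 711 CPM in those tumor libraries and to at most 3.04 CPM in those of spleen. Bulk tumor held Tnfrsf10b at 47.5 CPM on average. The part of tumor cell RNA in this difference was not tested. Tnfrsf10b lies at chr14:69767472-69784411 on the plus strand and Tnfsf10 at chr3:27317028-27342427 on the plus strand.

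Counting over the members, tumor against spleen in PMN-MDSC called 2 of 7 tested genes higher and 4 lower at an adjusted p under 0.05, where 59.1% of all genes tested were called, 29.4% higher and 29.7% lower. In M-MDSC 3 of 6 were higher and 1 lower, against 28.4% of all genes (15.7% higher and 12.7% lower). Tnfsf9 and Tnfsf13b in PMN-MDSC and Tnfsf9 and Tnfsf14 in M-MDSC averaged under 25 counts in the lower compartment and passed the filter through the other. In the interaction, which was added after the data had been seen, 1 of 7 was higher and 2 lower, against 37.3% of all genes (19.8% higher and 17.5% lower). The TMM-scaled median over all genes was 0.10 in that interaction, and −0.06 with the size factors of DESeq2. For Tnf the interaction was 0.07 ± 0.36 (adjusted p = 0.901), and its sign turned under the other size factors. Marker levels moved with the same contrast, since summed neutrophil markers were lower and macrophage markers higher in tumor than in spleen PMN-MDSC. In untreated M-MDSC macrophage markers summed to 1532 to 2271 CPM in tumor and 231 to 305 CPM in spleen, monocyte markers to 8500 to 11932 and 4947 to 7582 CPM, and neutrophil markers to 179 to 444 and 1281 to 2262 CPM. The part of these markers, and of the unlike preparation of tumor and spleen, in these differences was not tested.

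**Figure D3:**
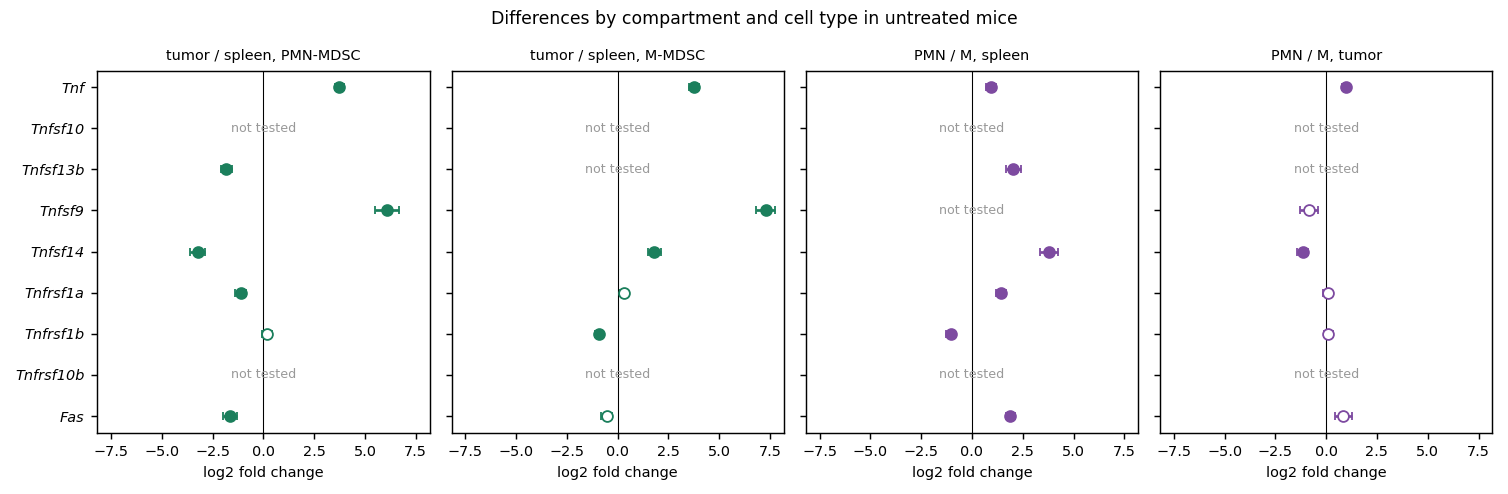
Log2 fold change ± SE (horizontal axes) of each member for tumor against spleen in each cell type and for PMN-MDSC against M-MDSC in each compartment, untreated mice. Filled points passed an adjusted p of 0.05, and members under the count filter are marked as not tested. Tnfsf14 lies at −3.24 in PMN-MDSC and at 1.81 in M-MDSC for tumor against spleen.

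Between the cell types of one compartment, spleen PMN-MDSC held more of most members than spleen M-MDSC. Tnfsf14 was 13.8-fold higher (log2 fold change 3.79 ± 0.44, adjusted p = 7.6e-05), though at a mean of 24.5 counts in spleen M-MDSC it passed the filter only through PMN-MDSC. Tnfsf13b was higher 4.06-fold (2.02 ± 0.37, adjusted p = 0.0011) and Fas 3.7-fold (1.89 ± 0.21, adjusted p = 5.3e-05). Tnfrsf1a was 2.68-fold higher (1.42 ± 0.23, adjusted p = 5.5e-04) and Tnfrsf1b 2.06-fold lower (−1.05 ± 0.21, adjusted p = 0.00184). In all, 5 of the 6 tested members, Tnfsf14 among them, were higher and 1 lower, where 64.4% of all genes were called (30.9% higher and 33.4% lower). In tumor 1 of 6 was higher and 1 lower, against 13.0% of all genes (7.25% higher and 5.73% lower). Tnfsf14 was there 2.23-fold lower in PMN-MDSC (−1.16 ± 0.26, adjusted p = 0.0105). Tnf was higher in PMN-MDSC by 1.94-fold in spleen (0.95 ± 0.25, adjusted p = 0.00845) and by 1.98-fold in tumor (0.98 ± 0.21, adjusted p = 0.00829). Those Tnf calls and the Tnfsf14 call in tumor were lost when all 9 groups shared a fit (adjusted p = 0.079, 0.166 and 0.0527). Fas did not pass in tumor (0.84 ± 0.41, adjusted p = 0.201), except without library 1 of tumor PMN-MDSC (adjusted p = 0.0403).

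The treatment comparison asked how MDSC changed after poly(I:C)c. Tnfsf10 was higher in treated than in untreated mice in all 4 MDSC populations, without overlap of the libraries in any of them. Its libraries read 10.7, 27.2 and 26.1 CPM in treated spleen PMN-MDSC, 20.2, 13.7, 7.70 and 16.7 CPM in treated tumor PMN-MDSC, 29.6, 53.0, 31.8 and 28.6 CPM in treated spleen M-MDSC and 21.2, 11.7 and 24.4 CPM in treated tumor M-MDSC. The rise passed the test in spleen M-MDSC at 6.34-fold (log2 fold change 2.66 ± 0.32, adjusted p = 5.1e-04) and in tumor PMN-MDSC at 3.99-fold (1.997 ± 0.37, adjusted p = 0.0134). The untreated libraries averaged 3.25 to 16.25 counts in the 4 populations, so wherever Tnfsf10 was tested for treatment it passed the filter only through the treated ones, where it is high, and these tests, by any tool, add little to the levels. The first call held in 8 of 8 fits without a library. The second was lost without untreated tumor PMN-MDSC library 3 (1.98, adjusted p = 0.0607) or library 4 (1.90, adjusted p = 0.0519).

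The other 2 populations gave less certain results for Tnfsf10. In tumor M-MDSC, at a mean of 10.25 counts in untreated libraries and under the same limit, the change of 1.80 ± 0.59 did not pass in edgeR (adjusted p = 0.13) and did in DESeq2 (adjusted p = 0.026). In spleen PMN-MDSC the gene averaged 18.3 counts and was not tested. It held 1 to 5 counts in the untreated and 13 to 52 counts in the treated libraries. No difference of the Tnfsf10 change between cell types or compartments passed, with PMN-MDSC minus M-MDSC at 1.47 ± 0.66 in spleen (adjusted p = 0.161) and at 0.19 ± 0.69 in tumor (adjusted p = 0.963), and tumor minus spleen at −0.85 ± 0.67 in M-MDSC (adjusted p = 0.604). The library rich in lymphocyte markers was the lowest of the treated spleen M-MDSC for Tnfsf10, and without it the change was 2.79 (adjusted p = 5.9e-04).

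**Figure D4:**
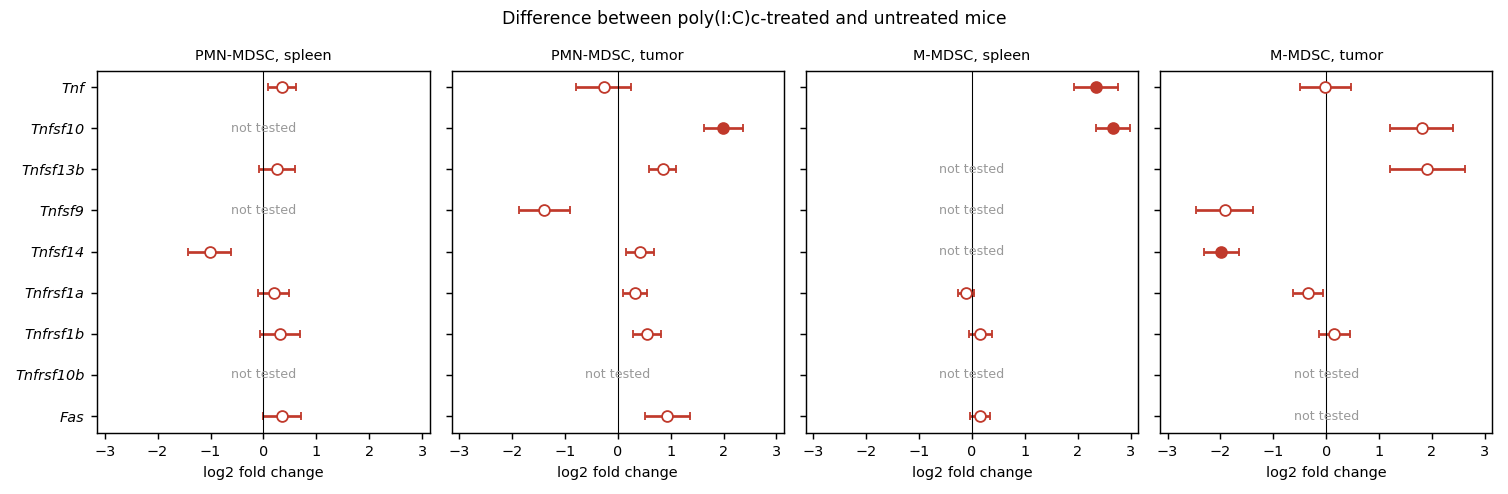
Log2 fold change ± SE (horizontal axes) of each member for poly(I:C)c against untreated in the 4 sorted populations. Filled points passed an adjusted p of 0.05, and members under the count filter are marked as not tested. Tnfsf10, under the count filter without its treated libraries, passed in spleen M-MDSC and tumor PMN-MDSC, and Tnf in spleen M-MDSC. Tnfsf14, under the filter without its untreated libraries, passed downward in tumor M-MDSC.

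Tnf rose with treatment in spleen M-MDSC. The treated libraries read 48.4, 135, 76.4 and 35.7 CPM, all above the 9.35 to 18.4 CPM of the untreated, and the ratio was 5.09-fold (log2 fold change 2.35 ± 0.42, adjusted p = 0.00474). Library 2 was the highest, and without it the change was 1.87 (adjusted p = 0.00489). Without library 4, the library rich in lymphocyte markers and the lowest for Tnf, it was 2.61 (adjusted p = 0.00225). In spleen PMN-MDSC the treated libraries read 34.7, 46.2 and 25.1 CPM and overlapped the untreated (0.35 ± 0.27, adjusted p = 0.442). The treatment change of Tnf in PMN-MDSC minus that in M-MDSC of spleen was −1.92 ± 0.55 (adjusted p = 0.0387), the only call of 7 members tested, where 10.9% of all genes were called and 6.45% were lower. That call held in 8 of 15 fits without a library, with adjusted p up to 0.0983. It was lost without untreated M-MDSC libraries 1, 2 or 4, treated M-MDSC libraries 2 or 3, untreated PMN-MDSC library 4 or treated PMN-MDSC library 3.

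In tumors Tnf stayed within a wide spread. Treated PMN-MDSC read 101, 210, 203 and 696 CPM (mean 302 ± 267 SD, n = 4) against 349 ± 101 CPM (n = 4) in untreated ones, a change of −0.27 ± 0.51 (adjusted p = 0.83). Treated M-MDSC read 147, 69.1 and 348 CPM (188 ± 144, n = 3) against 185 ± 45.6 CPM (n = 4), a change of −0.02 ± 0.48 (adjusted p = 0.989). Library 4 of PMN-MDSC and library 3 of M-MDSC were the highest by a wide margin. Without library 4 the change in PMN-MDSC was −1.10 (adjusted p = 0.0644), and without library 3 that in M-MDSC was −0.84 (adjusted p = 0.333). Library 4 was also the highest of its group for neutrophil markers, at 10020 CPM against 2657 to 4960 CPM, and library 3 for NK cell markers, at 37.25 CPM against 2.42 to 6.52 CPM. The treatment change in tumor minus that in spleen was −2.35 ± 0.70 in M-MDSC (adjusted p = 0.144), and it passed without library 3 of treated tumor M-MDSC (adjusted p = 0.0286) and in DESeq2 (adjusted p = 0.022).

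Tnfsf14 was lower after treatment in tumor M-MDSC. Treated libraries read 9.37, 4.62 and 8.70 CPM against 21.5 to 34.9 CPM in untreated ones, which is 3.95-fold lower (log2 fold change −1.98 ± 0.33, adjusted p = 0.0207). The treated libraries averaged 23 counts and the untreated 58, so the gene passed the filter only through the untreated ones. The call was lost without untreated libraries 1, 3 or 4 or treated library 3, with adjusted p from 0.0506 to 0.081. In spleen PMN-MDSC the treated libraries read 38.0, 68.5 and 72.6 CPM, all under the lowest untreated one at 77.1 CPM, and the change of −1.02 ± 0.40 did not pass (adjusted p = 0.139), though it did in the fit over all 9 groups (adjusted p = 0.0251). In tumor PMN-MDSC the treated libraries read 15.8, 12.8, 20.4 and 19.6 CPM and overlapped the untreated (0.42 ± 0.27, adjusted p = 0.45). The treatment change in tumor PMN-MDSC minus that in tumor M-MDSC was 2.40 ± 0.42 (adjusted p = 0.0898), and it passed without library 1 of treated tumor M-MDSC (adjusted p = 0.0298) and in DESeq2 (adjusted p = 1.5e-04). Spleen M-MDSC held Tnfsf14 at 4.17 ± 0.54 CPM (n = 4) after treatment and 8.74 ± 4.39 CPM (n = 4) without, under the count filter.

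Tnfsf9 and Tnfsf13b differed between treated and untreated tumor MDSC by sizes that did not pass the test. Tnfsf9 read 18.6, 43.2, 9.51 and 36.4 CPM in treated tumor PMN-MDSC (−1.39 ± 0.48, adjusted p = 0.166) and 39.1, 12.5 and 52.9 CPM in treated tumor M-MDSC (−1.92 ± 0.54, adjusted p = 0.0925), in each case overlapping the untreated. DESeq2 called both (adjusted p = 0.047 and 0.0058). Treated spleen M-MDSC held 2 to 26 Tnfsf9 counts per library, against 2 to 3 in the untreated ones, so no fold over spleen is given. Tnfsf13b read 17.3, 23.5, 14.5 and 22.01 CPM in treated tumor PMN-MDSC, above all untreated ones (0.85 ± 0.26, adjusted p = 0.107), and 10.6, 44.2 and 13.2 CPM in treated tumor M-MDSC, also above them (1.91 ± 0.71, adjusted p = 0.179). The highest of these, library 2 of M-MDSC, was also the highest of its group for macrophage markers at 8402 CPM. That library held 201 Tnfsf13b counts. Untreated libraries averaged 21.25 counts in tumor PMN-MDSC and 11.5 in tumor M-MDSC, against 54.5 and 88.3 in treated ones. Tnfsf13b thus passed the filter only through the treated libraries, and its tests add little to the levels. In spleen PMN-MDSC Tnfsf13b averaged 45.8 ± 15.5 CPM (n = 3) with and 39.0 ± 12.02 CPM (n = 4) without treatment.

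The receptors gave no call for treatment in any population. Tnfrsf1a changed by between −0.34 ± 0.29 in tumor M-MDSC (adjusted p = 0.578) and 0.32 ± 0.23 in tumor PMN-MDSC (adjusted p = 0.504). For Tnfrsf1b the largest estimate was 0.56 ± 0.26 in tumor PMN-MDSC, with treated libraries at 372, 336, 582 and 720 CPM (adjusted p = 0.295). Fas read 32.7, 18.3, 46.7 and 55.0 CPM in the same cells (0.94 ± 0.42, adjusted p = 0.271). It was not tested in tumor M-MDSC, where its mean of 24.9 counts lay just under the filter of 25. Tnfrsf10b held 4, 8 and 8 counts in treated and 0 to 2 in untreated spleen PMN-MDSC, and 4 to 10 counts in treated tumor PMN-MDSC, under the filter.

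Over the members, treatment called 2 of 5 tested genes in spleen M-MDSC, both higher, where 10.7% of all genes were called higher and 19.6% in either direction. It called 1 of 8 higher in tumor PMN-MDSC, where 2.29% of all genes were higher and 3.36% were called at all. In tumor M-MDSC it called 1 of 7 lower, Tnfsf14, where 1.06% were lower and 2.88% were called. Tnfsf10 in spleen M-MDSC and tumor PMN-MDSC, and Tnfsf14 in tumor M-MDSC, passed the filter only through the group where they were higher. In spleen PMN-MDSC edgeR called 0 of 6, where 11.6% of all genes were called, with 1 member at an unadjusted p under 0.05 and 0 calls by DESeq2, which called 18.7% of all genes. Of the differences between treatment changes, tumor minus spleen called 0 of 7 in PMN-MDSC where edgeR called 3.50% of all genes, with 1 member at an unadjusted p under 0.05 and 0 by DESeq2, which called 6.23%. In M-MDSC it called 0 of 8, where edgeR called 0.790% of all genes, with 3 members at an unadjusted p under 0.05 and 2 by DESeq2, which called 3.53%. The difference between cell types in tumor called 0 of 8, where edgeR called 0.0239% of all genes, with 1 member at an unadjusted p under 0.05 and 1 by DESeq2, which called 0.263%. The treated groups of a cell type differed from untreated ones in markers too. In tumor, monocyte markers summed to 1326 to 2501 CPM in treated and 3967 to 7850 CPM in untreated PMN-MDSC, and to 1892 to 4481 and 8500 to 11932 CPM in M-MDSC. The markers of that list did not move alike. Fn1 averaged 652 CPM in treated and 4649 CPM in untreated tumor PMN-MDSC, 958 and 7251 CPM in tumor M-MDSC and 725 and 2742 CPM in spleen M-MDSC. Ly6c2, which belongs to the Ly6C of the gates, averaged 148 and 5.91 CPM, 341 and 100.1 CPM and 847 and 122 CPM in the same order. Ly6g averaged 31.6 CPM in treated tumor PMN-MDSC against 2.92 CPM in untreated ones. In spleen M-MDSC, where Tnf and Tnfsf10 were called, monocyte markers summed to 2578 to 3828 CPM in treated and 4947 to 7582 CPM in untreated libraries. Endothelial markers there summed to 117 to 277 CPM in treated and 20.9 to 29.2 CPM in untreated libraries, with Kdr at 142 and 3.18 CPM, Pecam1 at 28.4 and 21.1 CPM and Cldn5 at 0. In spleen PMN-MDSC neutrophil markers summed to 32744 to 37678 CPM in treated and 13156 to 25539 CPM in untreated libraries, and macrophage markers to 52.6 to 124 and 374 to 1133 CPM. The part of these markers in the treatment results was not tested.

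Tnfrsf10b was the member called higher in bulk tumor than in both MDSC types of tumor. Its 4 libraries read 70.4, 47.0, 40.3 and 32.4 CPM (47.5 ± 16.4, n = 4), from 190 to 521 counts, above every sorted library. Untreated tumor PMN-MDSC held 4 to 14 counts and tumor M-MDSC 0 to 4. The gene passed the filter only through bulk tumor, so its tests (adjusted p = 2.6e-05 and 1.1e-06) carry little beyond these levels. Fas, another death receptor, was lower in bulk tumor at 3.67 ± 1.97 CPM (n = 4), with a log2 fold change of −2.62 ± 0.53 against PMN-MDSC (adjusted p = 0.00101) and −1.72 ± 0.50 against M-MDSC (adjusted p = 0.00961). Tnfrsf1a remained detectable at 24.1, 29.7, 43.7 and 44.7 CPM, and Tnfrsf1b at 8.11, 10.6, 14.2 and 15.4 CPM. Both were lower than in tumor PMN-MDSC, with log2 fold changes of −2.62 ± 0.23 (adjusted p = 1.2e-06) and −5.02 ± 0.26 (adjusted p = 1.6e-08).

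Among the ligands in bulk tumor, Tnf held 4 to 9 counts per library, against means of 747 counts in tumor PMN-MDSC and 382 in tumor M-MDSC. It passed the filter only through the sorted cells, so no fold is given. Tnfsf9 held 6 to 19 counts per library and Tnfsf14 0 to 3, where a count of 0 allows 0.8 CPM in the shallowest of these libraries. Tnfsf10 read 2.43, 9.39, 11.9 and 18.4 CPM, overlapping both MDSC types of tumor. At a mean of 7.25 counts in untreated tumor PMN-MDSC it passed the filter only through bulk tumor, so its comparison with them adds little to these levels. In all, bulk tumor against PMN-MDSC called 6 of the 7 tested members in either direction, where 69.5% of all genes were called. Against M-MDSC it called 7 of 8 in either direction, where 69.2% were called. Of these calls 3 and 5 were of members that averaged under 25 counts in one of the groups. The median over all genes was 0.09 and 0.17 on the log2 scale in these fits. Tissue and cell preparation differ between bulk and sorted samples, since bulk tumor was lysed without dissociation or sorting, and the part of that step in the ratios was not tested. Neutrophil, monocyte and macrophage markers summed to 6.62 to 13.1, 2178 to 3109 and 674 to 965 CPM in bulk tumor. These sums lay under those of both untreated MDSC types of tumor. Vcam1 of the macrophage list went the other way, at 669 CPM in bulk tumor against 268 and 73.3 CPM. The part of myeloid content was not tested either.

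The promoters of 7 members, taken from RefSeq on GRCm38.p6 as 250 bases before to 50 after a start site, were searched on both strands for letters typical of an interferon-stimulated response element (ISRE, the letters TTTC repeated after 2 free bases) and of an NF-kB site (GGG and CC around 5 free bases). Tnfsf13b has 2 promoters there, so 8 were searched. The ISRE letters were in a promoter of 2 of the 7 members and of 3.99% of all 27025 genes, or in 3.44% of all 32851 promoters. The NF-kB letters were in a promoter of 5 of the 7 and of 53.5% of all genes, or in 50.8% of all promoters. The promoter of Tnfsf10 held neither in this window. The windows below are 30 bases, 5′ to 3′ along the gene's strand, with the matching letters in capitals, and they show the ISRE matches and, for Tnf and Fas, the NF-kB match that reads on both strands. Further NF-kB matches of Tnf and Fas and those of Tnfsf14, Tnfrsf1a and Tnfrsf1b are not shown. The match in Tnfsf13b is on the opposite strand and begins 16 bases before the second annotated start, that in Tnfrsf1b begins 10 bases before the start, and those in Tnf and Fas, which match on both strands, begin 194 and 202 bases before it.
Tnfsf13b, chr8:10006607-10006636, plus strand: tacaaaaactGAAAGTGAAAtgcggaaggc
Tnfrsf1b, chr4:145246861-145246890, minus strand: ggcctgagggTTTCGCTTTCagtcaccagc
Tnf, chr17:35202182-35202211, minus strand: cttgatgcctGGGTGTCCCCaactttccaa
Fas, chr19:34290447-34290476, plus strand: gtgagtcagtGGGTTTCCCCgggagaccag
Neither gene with ISRE letters was called for treatment in any population, and Tnfsf10, called in 2 of them, had none in its window. Of the 5 genes with NF-kB letters, Tnf was called higher in 1 population and Tnfsf14 lower in 1, and Tnfrsf1a, Tnfrsf1b and Fas in 0. A match describes letters only.

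The wider family put these members in context. It was read as lists of 18 ligands, 28 receptors and 25 genes of death receptor signalling. From spleen to tumor in PMN-MDSC, 2 of 5 tested ligands were higher and 3 lower, and the third of the lower ones was Ltb, lymphotoxin beta, at 132 CPM in spleen and 12.9 CPM in tumor (−3.24 ± 0.43, adjusted p = 1.3e-04). Among 13 tested receptors 4 were higher and 5 lower, where 29.4% of all genes were higher and 29.7% lower. The higher ones included Tnfrsf9, the receptor of Tnfsf9, at a mean of 2 counts in spleen and 83.5 in tumor, which passed the filter only through tumor (adjusted p = 4.3e-05). They also included Tnfrsf11a, the receptor RANK (2.49 ± 0.45, adjusted p = 8.6e-04), at a mean of 23.75 counts in spleen. Ltbr, the receptor of Tnfsf14 and of lymphotoxin, was lower (−1.29 ± 0.24, adjusted p = 0.00104). Of 23 signalling genes 5 were higher and 7 lower. Among the calls, 2 ligands, 3 receptors and 1 signalling gene averaged under 25 counts in the lower compartment. Tnfaip3 (A20, a feedback inhibitor of NF-kB) rose from 59.5 to 2214 CPM (5.32 ± 0.21, adjusted p = 3.5e-07), while Bid, of the apoptotic cascade, fell by 2.63 ± 0.32 (adjusted p = 7.4e-05).

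In M-MDSC the 3 tested ligands were all higher in tumor, with 2 of 10 receptors higher and 3 lower and 4 of 25 signalling genes higher and 2 lower, where 15.7% of all genes were higher and 12.7% lower. Of these ligands 2, Tnfsf9 and Tnfsf14, averaged under 25 counts in spleen and passed the filter only through tumor, so their direction adds little. Tnfaip3 rose from 91.6 to 1701 CPM (4.25 ± 0.24, adjusted p = 2.1e-07) and Cflar, the inhibitor of caspase-8 known as c-FLIP, by 1.41 ± 0.13 (adjusted p = 1.1e-05). Cd40 rose by 0.94 ± 0.18 (adjusted p = 0.00188). Relt was lower (−0.99 ± 0.13, adjusted p = 1.5e-04).

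For treatment in spleen M-MDSC 2 of 2 ligands, 2 of 11 receptors and 6 of 25 signalling genes were higher, and 1 receptor was lower, where 10.7% of all genes were higher and 19.6% were called. Of the ligands, Tnfsf10 passed the filter only through the treated libraries. Mlkl, the effector of necroptosis, rose by 1.27 ± 0.20 (adjusted p = 0.00206), Cflar by 1.19 ± 0.20 (adjusted p = 0.00337) and Birc2, a ubiquitin ligase of the TNF receptor complex, by 0.72 ± 0.12 (adjusted p = 0.00332). Tnfrsf14, a receptor of Tnfsf14, rose by 1.12 ± 0.23 (adjusted p = 0.00868), and the lower receptor was Tnfrsf21, known as death receptor 6 (−1.19 ± 0.19, adjusted p = 0.00254). In spleen PMN-MDSC Casp8, the initiator caspase of death receptors, rose from 60.0 to 128 CPM (1.10 ± 0.22, adjusted p = 0.0171). In all, 2 of 23 signalling genes were called there, beside 0 of 4 ligands and 1 of 9 receptors, Tnfrsf23, a receptor of Tnfsf10 without a death domain (−1.52 ± 0.32, adjusted p = 0.0203, under 25 counts on average in treated libraries), where 11.6% of all genes were called. In the tumor 1 of 6 ligands, 0 of 13 receptors and 0 of 24 signalling genes were called in PMN-MDSC, and 1 of 5, 1 of 10 and 0 of 24 in M-MDSC, the receptor being Tnfrsf11a (0.89 ± 0.20, adjusted p = 0.0461). Of all genes 3.36% and 2.88% were called in these comparisons. The ligands called, Tnfsf10 and Tnfsf14, passed the filter only through the group where they were higher.

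**Figure D5:**
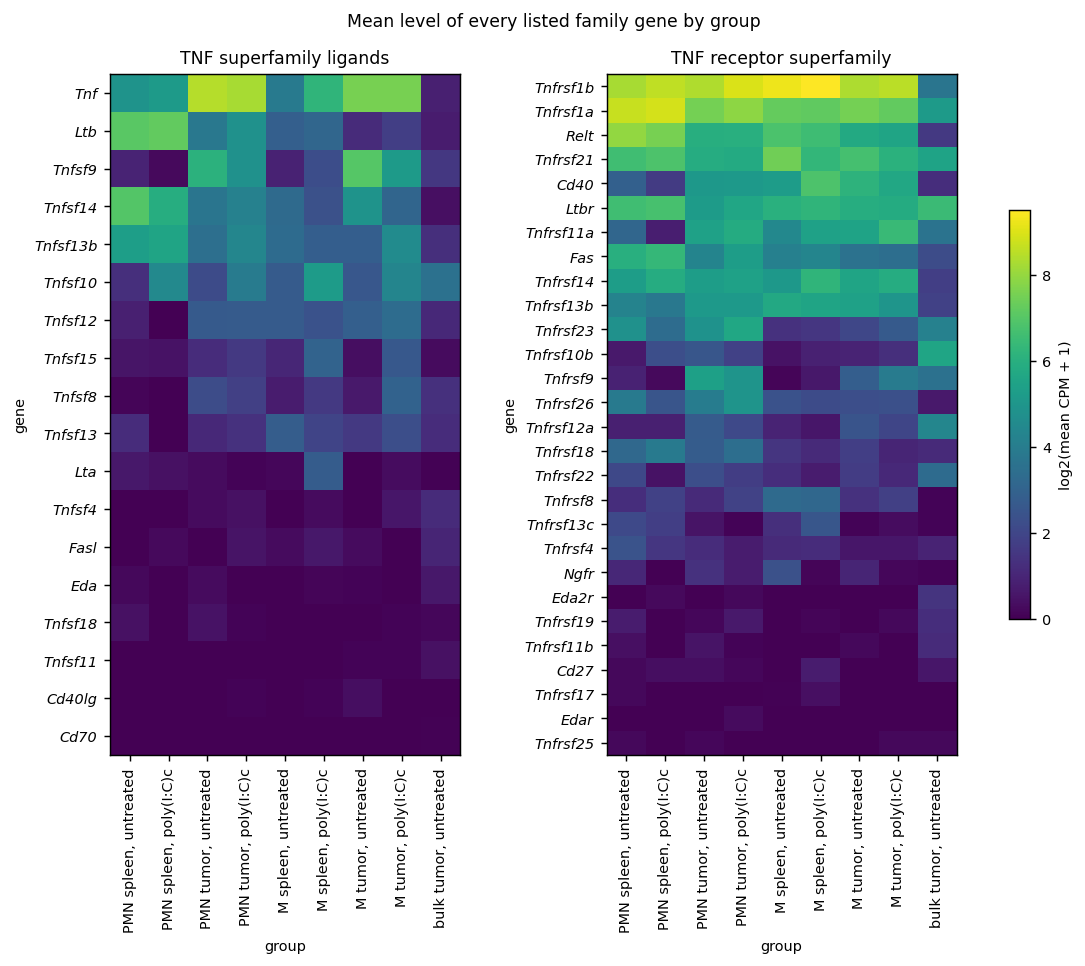
Mean level as log2(CPM + 1) (color) of 18 TNF superfamily ligands and 28 receptors (rows) in the 9 groups (columns). Most ligands are near 0 in all groups, Tnf, Tnfsf9, Tnfsf14, Tnfsf13b and Ltb stand out in sorted cells, and Tnfrsf1a and Tnfrsf1b are high in every sorted group.

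The genes whose log2(CPM + 1) followed Tnf most closely over the 30 sorted libraries, among 8535 genes compared, were Ccrl2 (Pearson r = 0.946), Tnfaip3 (0.943) and Ccl3 (0.942). For Tnfrsf1a they were Ccnl2 (0.947), Foxo3 (0.947) and Cmip (0.944), and for Tnfrsf1b the closest were Mapkapk2 (0.773), Rbsn (0.754) and Rras (0.749). These values describe libraries that share cell types, compartments and mice.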

How the data were processed

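Per the labels and the study's methods, MDSC were enriched for CD11b and sorted, and stranded total RNA libraries were made with 13 PCR cycles. The authors aligned reads with ContextMap and BWA to mm10 (GRCm38), and deposited raw counts per gene from featureCounts (Subread 1.4.6-p3 in the submitters' processing notes), in a strand-specific manner with Gencode annotation. Members and lists were chosen with earlier results of these data known. Gene positions and exon lengths came from a Gencode annotation of GRCm38. All 9 members, the 3 family lists and the marker lists matched by symbol.

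From the counts, edgeR 4.0.16 (R 4.3.3) gave quasi-likelihood F-tests, two-sided and robust, with TMM scaling, over genes averaging at least 25 counts in the libraries compared, and with Benjamini-Hochberg adjustment over all genes tested. Log2 fold changes are given ± SE. Interactions tested differences of changes, and that of compartment with cell type was added after the data were seen. Alternatives were DESeq2 1.42.0, its size factors, no filter, all 9 groups in a fit, an adjusted p under 0.001 with a 2-fold change, CPM on library totals, and leaving out each library. Scripts were tested on simulated data. Named genes are the members, up to 3 genes per list and direction with the smallest adjusted p among those called (up to 2 outside the treatment comparisons), and the 3 genes most like Tnf, Tnfrsf1a and Tnfrsf1b, to which Fas ligand was added after its values were seen. Some genes that this rule names, and the genotype behind the tumor line, are not reported here. The study counts its groups in mice, so the libraries of a group are taken as separate animals. The titles number the samples but the columns of the count table do not carry these numbers, so comparisons of compartments and cell types, which share mice, were fitted as unpaired. Replicate pairs differed by more than sampling noise (chi-square per degree of freedom 6.19 to 49.5 over 48 pairs).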

Additional observations from a re-analysis of the deposited data

Results flagged for a closer look

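In treated spleen M-MDSC, Tnfsf10 was 53.0 CPM in library 2, away from 28.6 to 31.8 CPM in the other 3. In untreated tumor M-MDSC, Tnfrsf10b was 0 in library 1 and 1.10 to 1.30 CPM in the others, which rest on 1 to 4 counts. These are 2 lone libraries among 63 groups of at least 4 libraries examined, and chance flags about 1 in 20.

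The treatment change of Tnf in spleen differed between cell types, PMN-MDSC minus M-MDSC, by −1.92 on the log2 scale. The tumor-to-spleen change differed between PMN-MDSC and M-MDSC by −4.93 for Tnfsf14, by −1.32 for Tnfrsf1a and by 1.19 for Tnfrsf1b. Each of these differences passed the edgeR interaction test.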

How the results depend on the processing

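With 3 or 4 libraries a group, genes under the count filter, Tnfrsf10b in MDSC above all, were tested only without it. No paired analysis was possible because the columns are numbered in a series of their own, which the labels do not tie to the replicate numbers in the sample titles, so the planned replicate block could not be fitted.

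Without the filter the members called numbered 3 for treatment in spleen PMN-MDSC, 3 in tumor PMN-MDSC and 4 in tumor M-MDSC (6.58%, 2.91% and 4.10% of all genes were called), 2 and 3 for tumor minus spleen in PMN-MDSC and M-MDSC (676 of 33775 genes and 2.21%), and 1 for PMN-MDSC minus M-MDSC in tumor (0.494%). The fit over all 9 groups called 1 in spleen PMN-MDSC (23.4% of all genes), 4 in tumor M-MDSC (9.72%) and 0 for PMN-MDSC against M-MDSC in tumor (8.40%). DESeq2 called 2 in tumor PMN-MDSC (7.38%), 3 in tumor M-MDSC (9.55%), 2 for tumor minus spleen in M-MDSC (3.53%) and 1 for PMN-MDSC minus M-MDSC in tumor (0.263%). At an adjusted p under 0.001 and 2-fold, treatment called 0 in tumor PMN-MDSC (0.241%), 1 in spleen M-MDSC (2.47%) and 0 in tumor M-MDSC (0.0120%), tumor against spleen in M-MDSC 2 (8.60%), PMN-MDSC against M-MDSC 3 in spleen (23.2%) and 0 in tumor (1.65%), the treatment difference between cell types in spleen 0 (0.119%) and the compartment interaction 1 (6.92%). The cause was not tested.

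On library totals, Tnfrsf1a was 339.7 CPM in treated spleen PMN-MDSC and 176 in untreated spleen M-MDSC, where Tnfrsf1b was 723 and Fas 19.3, and Tnfrsf10b was 2.80 in treated spleen PMN-MDSC. For uncalled values that turned, Tnfrsf1b in tumor minus spleen of M-MDSC was −0.026 with the other size factors and DESeq2 and −0.021 without the filter, and Tnf in the compartment interaction was −0.087 with the other size factors, −0.091 with DESeq2 and −0.13 without the filter.

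Leaving out a library, treatment called 0 to 0 members in spleen PMN-MDSC, 0 to 1 in tumor PMN-MDSC, 2 to 2 in spleen M-MDSC and 0 to 1 in tumor M-MDSC. Tumor against spleen called 6 to 6 and 4 to 5 in PMN-MDSC and M-MDSC, PMN-MDSC against M-MDSC 6 to 6 in spleen and 2 to 3 in tumor, bulk tumor 6 to 7 against PMN-MDSC and 7 to 7 against M-MDSC. With all libraries and in the same order, these comparisons called 59.1% and 28.4%, 64.4% and 13.0%, and 69.5% and 69.2% of all genes. Differences of treatment changes called 0 to 0 and 0 to 2 for tumor minus spleen in PMN-MDSC and M-MDSC and 0 to 1 for PMN-MDSC minus M-MDSC in spleen and in tumor, and the compartment interaction 3 to 4. That interaction called 37.3% of all genes with all libraries. Uncalled log2 values that crossed 0 ranged, for treatment, from −0.00475 to 0.47 for Tnfsf13b and −0.20 to 0.60 for Fas in spleen PMN-MDSC, −1.10 to 0.025 for Tnf in tumor PMN-MDSC, and −0.84 to 0.39 for Tnf and −0.031 to 0.38 for Tnfrsf1b in tumor M-MDSC. For PMN-MDSC against M-MDSC in tumor they were −0.061 to 0.22 for Tnfrsf1b and −0.11 to 0.18 for Tnfrsf1a. For tumor minus spleen they were −0.051 to 0.53 for Tnfrsf1b and −0.11 to 0.35 for Tnfrsf1a in PMN-MDSC, and −0.19 to 0.23 for Tnfrsf1b and −0.79 to 0.0061 for Fas in M-MDSC. For PMN-MDSC minus M-MDSC they were −0.21 to 0.56 for Tnfsf14, −0.30 to 0.57 for Fas and −0.10 to 0.60 for Tnfrsf1b in spleen and −0.29 to 0.46 for Tnfsf10 and −1.06 to 0.56 for Tnf in tumor. Tnf in the compartment interaction gave −0.19 to 0.19.

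Over all genes, treatment called 844 in spleen PMN-MDSC, 279 in tumor PMN-MDSC and 241 in tumor M-MDSC, against 1354, 613 and 797 by DESeq2 and 1818, 864 and 1064 without the filter. The fit over all 9 groups gave 1697 in spleen PMN-MDSC and 813 in tumor M-MDSC. Leaving out a library gave 310 to 957, 113 to 278 and 27 to 499, 1110 to 1810 in spleen M-MDSC (1733 with all libraries), and, for the differences of treatment changes, 72 to 448 (282) and 7 to 257 (69) for tumor minus spleen in PMN-MDSC and M-MDSC and 555 to 1397 (914) and 0 to 24 (2) for PMN-MDSC minus M-MDSC in spleen and tumor.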
